A study of Mus musculus with 8 samples.

Results

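The myelin-associated disease-associated microglia described here, called myelin-DAM, were the nuclei that the authors' deposited annotation placed in the subpopulation Myelin_DAM. They numbered 248 of 2291 microglia and macrophage nuclei, which were taken from 61949 nuclei in all. Of the 248 nuclei, 235 came from the 4 libraries of mice without Cnp. The tissue was the brain hemisphere of C57BL6/J mice aged 6 months, less the olfactory bulb and cerebellum, and its nuclei were sequenced in 8 libraries, 2 for each genotype. The genotypes were WT, Cnp-/-, 5xFAD and the cross of both lines, Cnp-/- 5xFAD. Cnp-/- mice lack CNP, an enzyme of non-compact myelin, in every cell of the body, and 5xFAD mice carry mutant human transgenes and deposit amyloid. Replicates were different mice, and single-cell replicates were described in general as pools of 2 animals. The p-values below rest on the spread between such libraries, except in the gene tests of Cnp-/- 5xFAD against Cnp-/- within a subpopulation. Those took 2 groups of nuclei from each library as separate samples, so their p-values rest partly on samples that are not independent. All values are counts of unique molecular identifiers (UMIs), summed over the nuclei of a subpopulation in a library to give 1 profile, and levels are UMIs per 1000000 UMIs of the profile (CPM). Because nuclei were sequenced, levels refer to nuclear RNA.

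Microglia are the resident macrophages of the brain parenchyma. When myelin degenerates they engulf its debris, and the cholesterol it carries must then be freed in lysosomes, stored as esters or exported by transporters such as ABCA1 to lipoproteins that contain APOE. In the disease-associated state microglia lower genes of surveillance such as P2ry12 and Tmem119 and raise genes of lipid handling, lysosomes and phagocytosis, many of them downstream of the receptor TREM2.

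Myelin-DAM nuclei numbered 83 and 36 in Cnp-/- replicates 1 and 2 and 67 and 49 in Cnp-/- 5xFAD replicates 1 and 2. In the same order they made up 30.5% (95% exact binomial interval 25.1 to 36.4%), 26.3% (19.1 to 34.5%), 16.6% (13.1 to 20.6%) and 13% (9.77 to 16.8%) of the microglia and macrophage nuclei. In WT libraries the share was 0.503% (1 of 199 nuclei) and 0 of 70 nuclei, which allows a share of up to 4.29%. The 5xFAD libraries held 5 of 492 nuclei (1.02%) and 7 of 340 nuclei (2.06%). All 4 libraries without Cnp therefore lay above all 4 libraries with it. These intervals and limits cover counting error only. Within the Cnp-/- background the share was 28.4% ± 3.00 (SD, n = 2) without 5xFAD and 14.8% ± 2.54 (SD, n = 2) with it, a difference of -13.6 percentage points. The 2 groups did not overlap, and the two-sided exact permutation test gave p = 0.333, the smallest value that 2 against 2 libraries allow. The direction was the same without macrophages (-14.4 percentage points) and for nuclei of at least 1000 UMIs (-12.9). It also held as a share of myelin-DAM plus homeostatic nuclei (-9.15). Microglia and macrophage nuclei numbered 404 and 377 in Cnp-/- 5xFAD and 272 and 137 in Cnp-/-. As a share of all nuclei of a library, myelin-DAM made up 0.722% ± 0.444 in Cnp-/- and 0.769% ± 0.268 in Cnp-/- 5xFAD (SD, n = 2 each), and these groups overlapped (exact permutation p = 1).

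**Figure D1:**
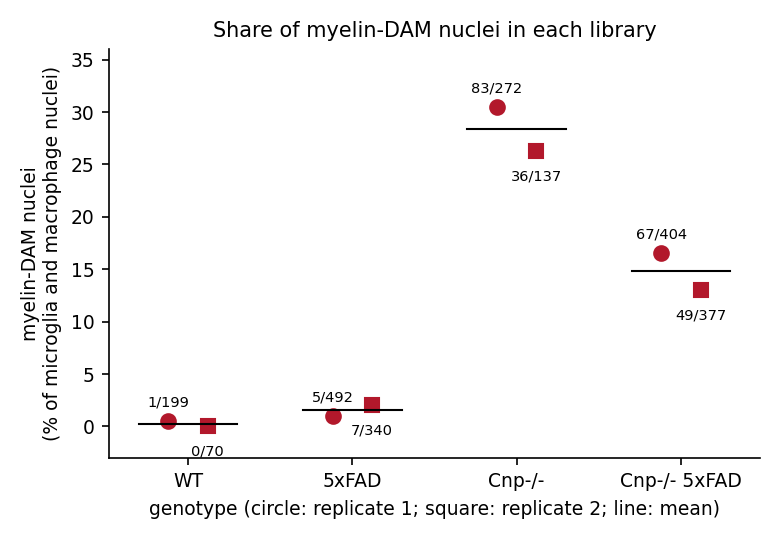
Share of myelin-DAM nuclei, in percent of microglia and macrophage nuclei (y axis), in each of the 8 libraries by genotype (x axis), with the mean of each genotype as a line and the nuclei behind each point beside it. Libraries without Cnp lie between 13 and 30.5%, and libraries with Cnp lie at or under 2.06%.

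The comparison group throughout was the homeostatic subpopulation of the same 4 libraries without Cnp, with 106, 64, 123 and 137 nuclei (430 in all). Values are given below in the order Cnp-/- replicates 1 and 2, then Cnp-/- 5xFAD replicates 1 and 2. Profiles held 47149 to 102734 UMIs for myelin-DAM and 80753 to 176528 for homeostatic nuclei, and the median nucleus held 1139 to 1295 and 1023.5 to 1338 UMIs, so depth per nucleus was alike. Cnp stood at 219 to 321 CPM in mature oligodendrocytes of libraries with Cnp and at 23.1 to 32.8 CPM in those without, lower but not absent. Neurons held 8.37 to 12.9 CPM of Cnp over all 8 libraries. The source of the remaining Cnp UMIs was not tested. All 248 nuclei were called microglia in the annotation of all nuclei, 2 were called macrophages in the annotation of microglia, and 4 shared a barcode with a nucleus of another library. Since subpopulations were found by clustering these same counts, differences between myelin-DAM and homeostatic profiles are given as a description and without a test.

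The 5 genes taken as markers of the subpopulation encode a lysosomal and phagosomal glycoprotein (Gpnmb), a tetraspan membrane protein of macrophages (Ms4a7), the cytidine deaminase that edits apolipoprotein B mRNA (Apobec1), the cholesterol exporter ABCA1 (Abca1) and the membrane repair protein myoferlin (Myof). Gpnmb was close to all-or-none. It stood at 331, 318, 290 and 354 CPM in myelin-DAM and at 0, 0, 5.66 and 0 CPM in homeostatic profiles, where a single UMI was counted. The ratio of the summed levels was 169, with a 95% counting interval of 29.7 to 6756. Ms4a7 stood at 117, 127, 114 and 124 CPM in myelin-DAM and had no UMI in any homeostatic profile, so it was at least 20.9-fold higher, taking 3 UMIs over the homeostatic group as the floor. Apobec1 was at 1236, 954, 1015 and 1169 CPM against 162, 149, 198 and 122 CPM, a ratio of 6.90 (5.42 to 8.86). In these 3 genes the profiles of the 2 subpopulations lay far apart in every library. Myof was at 146, 191, 176 and 195 CPM against 0, 24.8, 0 and 13.5 CPM, a ratio of 22.7 (8.35 to 86.4). Abca1 differed least, with 759, 1145, 818 and 974 CPM against 705, 693, 453 and 709 CPM and a ratio of 1.42 (1.20 to 1.67). The Abca1 profiles did not overlap, but the lowest myelin-DAM value and the highest homeostatic value were close.

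**Figure D2:**
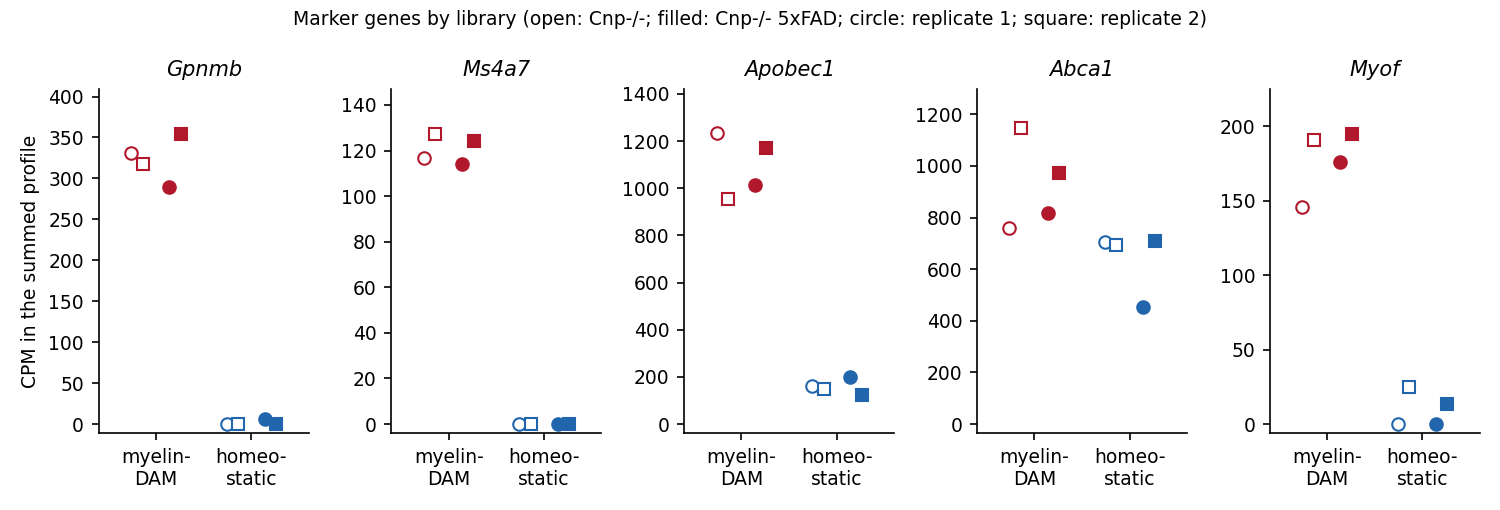
Levels of the 5 marker genes, in CPM of the summed profile (y axes), in myelin-DAM and homeostatic nuclei (x axes) of each library without Cnp, with 1 point per library. Gpnmb, Ms4a7 and Myof are at or near 0 CPM in homeostatic profiles, while Abca1 reaches 709 CPM there against 759 to 1145 CPM in myelin-DAM.

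The same genes were read in macrophages and in myelin transcript enriched nuclei of these libraries, and amyloid-associated DAM nuclei were not compared here. In macrophages, 72 nuclei in all, Gpnmb had no UMI, whereas Ms4a7 stood at 575 ± 180 CPM, Apobec1 at 436 ± 133 CPM, Abca1 at 705 ± 273 CPM and Myof at 117 ± 71.2 CPM (SD, n = 4 libraries). Ms4a7 was thus higher in macrophages than in myelin-DAM, and Gpnmb and Apobec1 were lower. In the myelin transcript enriched nuclei (MyTE, 179 nuclei) the means ranged from 20.2 CPM for Gpnmb to 319 CPM for Abca1.

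The start sites of these genes were read for 3 short letter patterns, in windows of 300 bases that reach from 250 bases before to 50 bases after each RefSeq start (GRCm38.p6). CACGTG is the E-box read by MITF and TFEB among other factors, TGANTCA is the core of AP-1 sites, and AGGTCA is the half-site of nuclear receptors. Both strands were searched, and these patterns occur in 7.15%, 7.81% and 16.3% of the 32851 windows of the mouse table. Of the 6 windows of the 5 genes, 3 held a match, and these are printed in the direction of transcription with the match in capitals. The Gpnmb window (chr6:49036268-49036567, plus strand) holds TGACTCA starting 8 bases after the start site, the Abca1 window (chr4:53159846-53160145, minus strand) holds CACGTG 147 bases before it, and the second Ms4a7 window (chr19:11334646-11334945, minus strand) holds TGATTCA 81 bases before it. The windows of Apobec1 and Myof and the first of Ms4a7 held none of the letters.
Gpnmb: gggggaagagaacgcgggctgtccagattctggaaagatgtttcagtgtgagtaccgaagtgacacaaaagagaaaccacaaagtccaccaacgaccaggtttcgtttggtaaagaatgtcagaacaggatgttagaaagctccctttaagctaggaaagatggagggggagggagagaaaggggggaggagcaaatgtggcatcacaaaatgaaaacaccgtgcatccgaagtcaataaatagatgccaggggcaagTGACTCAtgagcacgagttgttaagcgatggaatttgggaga
Abca1: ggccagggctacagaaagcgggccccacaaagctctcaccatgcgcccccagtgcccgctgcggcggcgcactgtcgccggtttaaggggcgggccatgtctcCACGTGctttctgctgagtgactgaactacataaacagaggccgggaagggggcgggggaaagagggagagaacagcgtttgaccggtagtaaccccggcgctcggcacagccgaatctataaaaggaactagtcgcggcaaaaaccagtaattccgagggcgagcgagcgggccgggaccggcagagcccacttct
Ms4a7: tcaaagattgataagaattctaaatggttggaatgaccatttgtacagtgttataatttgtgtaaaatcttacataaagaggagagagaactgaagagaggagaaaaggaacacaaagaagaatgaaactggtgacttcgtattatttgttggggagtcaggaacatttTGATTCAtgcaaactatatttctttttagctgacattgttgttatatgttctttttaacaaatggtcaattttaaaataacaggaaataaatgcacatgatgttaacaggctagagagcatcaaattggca
Binding of a factor was not measured, and the matches describe the letters alone. Only exact matches were sought, so a window without one may still hold a site of other letters. The genes lie at chr6:49036546-49070929 (Gpnmb, plus strand), chr4:53030787-53159895 (Abca1), chr19:11321039-11336146 (Ms4a7), chr6:122577792-122602444 (Apobec1) and chr19:37899036-38043577 (Myof, the last 4 on the minus strand) in GRCm38. For Gpnmb this start lies downstream of the RefSeq start used for its window. The TGACTCA of Gpnmb is thus after the RefSeq start but before 49036546.

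The marker genes were seen in a part of the nuclei. Gpnmb had at least 1 UMI in 20.4% of 235 myelin-DAM nuclei (95% exact binomial interval 15.5 to 26.2%) and in 0.233% of homeostatic nuclei. By library the myelin-DAM share was 21.7%, 22.2%, 19.4% and 18.4%. Ms4a7 was seen in 13.2% (9.14 to 18.2%), against 0 of 430 homeostatic nuclei, which allows a share of up to 0.698%, and 56.9% of macrophages. The limit and the intervals here cover counting error only, over nuclei pooled from the libraries. They refer to nuclei with a UMI at this depth and not to nuclei holding the transcript. Apobec1 was seen in 56.6% (50.0 to 63.0%) against 17.4%, Myof in 17.0% (12.4 to 22.4%) against 0.930%, and Abca1 in 59.1% (52.6 to 65.5%) against 48.4%. Median depth was 1208 UMIs in myelin-DAM and 1136.5 in homeostatic nuclei. Neurons, taken as a reference low in these genes although Abca1 is expressed widely, held 8693 UMIs at the median and showed a UMI of Gpnmb in 1.05%, Ms4a7 in 0.243%, Apobec1 in 1.75%, Myof in 3.59% and Abca1 in 11.1% of nuclei. The homeostatic shares of Gpnmb, Ms4a7 and Myof were at or under those of neurons and were read as background. With each nucleus thinned to 706 UMIs, which left out 24 myelin-DAM and 44 homeostatic nuclei, the myelin-DAM shares were 17.5% for Gpnmb, 7.11% for Ms4a7, 43.6% for Apobec1, 8.53% for Myof and 43.6% for Abca1. In the same order the thinned homeostatic shares were 0, 0, 10.9%, 0.259% and 34.2%, and those of neurons were 0.0168% to 1.11%.

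Nuclei of the subpopulation differed in how many of the 5 markers they showed. None was seen in 45 of the 235 nuclei, 1 in 68, 2 in 70, 3 in 30, 4 in 17 and all 5 in 5 nuclei. Of the 430 homeostatic nuclei, 177 showed none, 219 showed 1, 33 showed 2 and 1 showed 3. The share of nuclei with 2 or more markers was 52.3% ± 5.85 in myelin-DAM and 8.67% ± 3.63 in homeostatic nuclei (SD, n = 4 libraries). It ranged over libraries from 44.9 to 58.3% and from 6.50 to 14.1%, so the library shares of these 2 subpopulations did not overlap. Single nuclei did overlap in their number of markers, as the counts above show. The nuclei had been placed by these same counts, so a difference in marker number is partly set by that choice. Macrophages and MyTE showed several markers too, with 26 of 72 macrophages showing 2, 22 showing 3 and 2 showing 4, and 38, 12 and 2 of 179 MyTE nuclei, at median depths of 1734 and 2673 UMIs. At this depth a nucleus without a marker UMI cannot be told from one without the transcript.

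**Figure D3:**
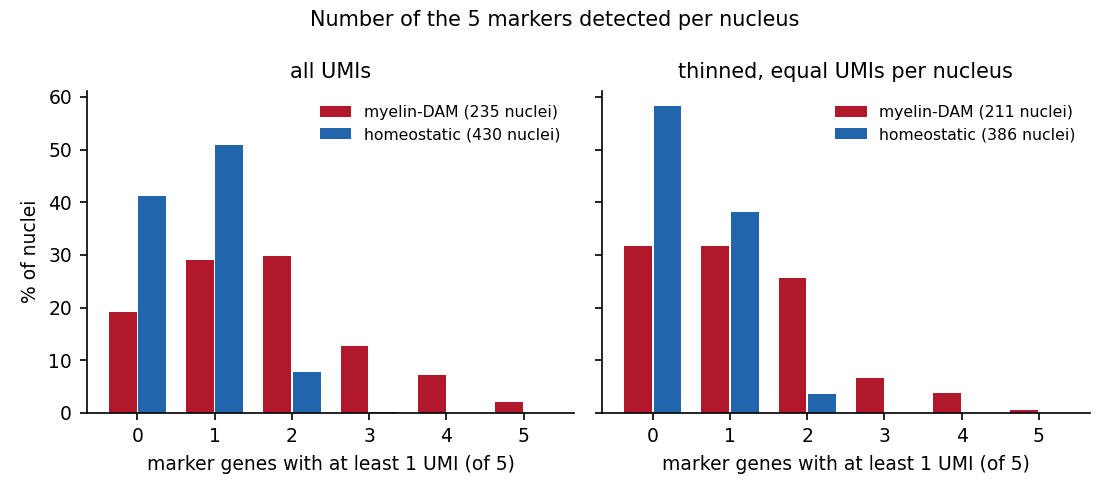
Number of the 5 marker genes with at least 1 UMI in a nucleus (x axes) against the percent of nuclei (y axes), for myelin-DAM (red) and homeostatic nuclei (blue) of the 4 libraries without Cnp, with all UMIs (left) and after thinning each nucleus to the same number of UMIs (right). With all UMIs, 45 of 235 myelin-DAM nuclei and 177 of 430 homeostatic nuclei showed no marker.

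Across all genes, 61 of 3325 (1.83%) were more than 2-fold higher in myelin-DAM than in homeostatic nuclei of the same library in each of the 4 libraries, and 26 (0.782%) were more than 2-fold lower in each. With a library left out, a gene had to pass in fewer libraries, a looser rule under which counts tend to rise. Without Cnp-/- replicate 2 the counts were 94 and 49, with 60 of the 61 and 26 of the 26 kept. Without Cnp-/- 5xFAD replicate 2 there were 75 and 40, with 57 and 26 kept. The levels of the 2 subpopulations did not overlap, with myelin-DAM higher, for 224 genes (6.74%) and, with myelin-DAM lower, for 220 (6.62%), most of them short of the fold threshold, so a lack of overlap alone was common. The median log2 difference over all genes was -0.01. Of the 61 higher genes, 34 had fewer than 10 UMIs in each homeostatic profile and could pass the filter on low counts through their myelin-DAM counts alone. Likewise, 8 of the 26 lower genes had fewer than 10 UMIs in each myelin-DAM profile. Atp6v0d2, Colec12, Igf1, Itgax, Lgals3, Lpl and Lyz2, called in lists below, were among the 34. So were the markers Gpnmb, Ms4a7 and Myof. Counts of called genes in those lists stand beside the shares of 1.83% higher and 0.782% lower over all genes. Differences are given below as the mean over libraries of the within-library log2 difference of scaled CPM (with 2 UMIs added on average before the logarithm), ± SD over 4 libraries. Of the 5 markers, Gpnmb (4.02 ± 0.27), Ms4a7 (2.83 ± 0.04), Myof (2.82 ± 0.50) and Apobec1 (2.62 ± 0.34) were among the 61, and Abca1 (0.48 ± 0.32) was not. The 5 genes were taken as markers of the subpopulation beforehand, so their calls describe it and do not test it.

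**Figure D4:**
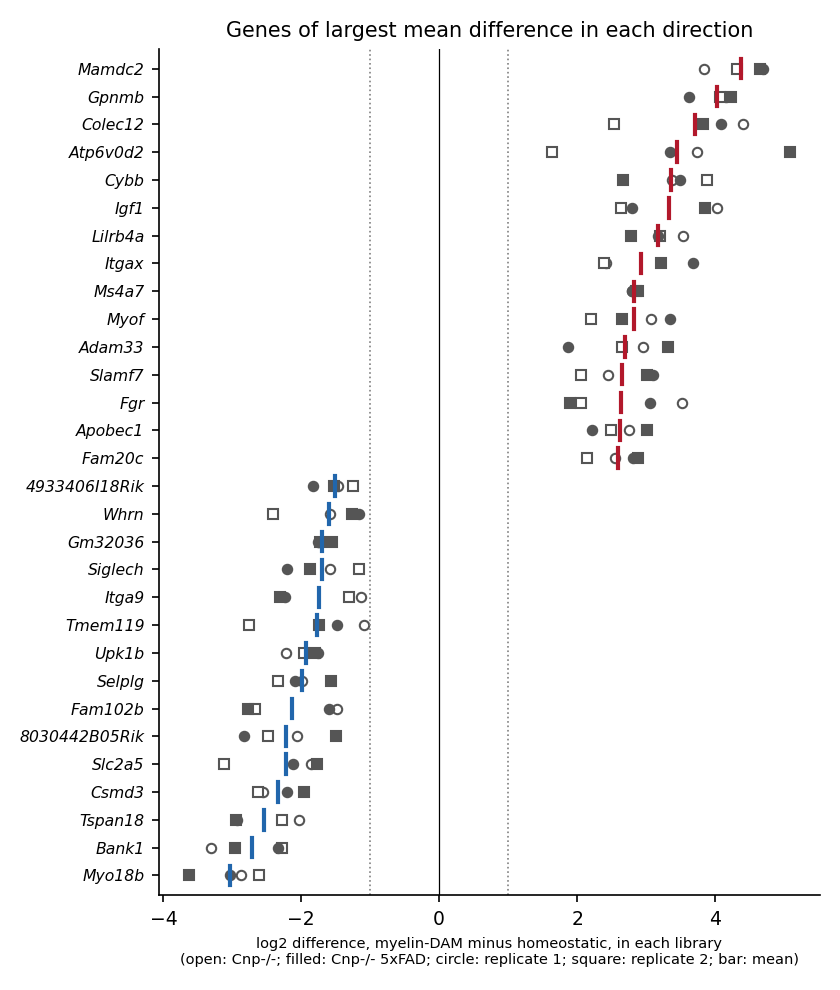
Log2 difference between myelin-DAM and homeostatic profiles of the same library (x axis) for the 15 genes of largest mean difference in each direction (y axis), with 1 point per library, the mean as a bar and 2-fold as dotted lines. The means run from 4.38 for Mamdc2 to -3.04 for Myo18b, and Atp6v0d2 has the widest spread among the higher genes shown (SD 1.42).

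Among the genes of uptake and adhesion, Colec12, a scavenger receptor, was at 399, 170, 404 and 461 CPM in myelin-DAM and at 0, 12.4, 5.66 and 13.5 CPM in homeostatic profiles (3.71 ± 0.82). Axl, a receptor that binds dying cells through the bridging protein GAS6, was at 234, 212, 373 and 319 CPM against 40.5, 37.2, 79.3 and 47.3 CPM (2.07 ± 0.15). Itgax, which encodes the integrin CD11c, stood at 175, 84.8, 228 and 230 CPM against 16.2, 0, 0 and 6.75 CPM (2.93 ± 0.63). The related receptor gene Mertk went the other way, with 1830, 1782, 1802 and 1842 CPM against 2886, 2836, 3019 and 2648 CPM (-0.69 ± 0.08), short of 2-fold but without overlap. Trem2 itself lay at 204, 255, 207 and 248 CPM against 219, 173, 176 and 257 CPM (0.10 ± 0.28), and the subpopulations overlapped. Of 22 phagocytic and scavenger receptor genes, 13 passed the filter, 2 were called higher (Axl and Colec12) and none lower. Their median difference was -0.01, the same as over all genes, of which 1.83% were called higher.

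Genes of lipid handling differed one by one. Lpl, the lipase that frees fatty acids from lipoproteins, was at 311, 212, 218 and 88.6 CPM in myelin-DAM and at 8.11, 24.8, 17.0 and 20.3 CPM in homeostatic profiles (2.50 ± 0.90). Apoe was at 681, 509, 694 and 1612 CPM against 397, 136, 221 and 480 CPM (1.40 ± 0.47), higher in every library but short of 2-fold in Cnp-/- replicate 1. Nceh1, which hydrolyses stored cholesterol esters, averaged 1.61 ± 0.80, and Soat1, which makes them, 0.60 ± 0.79. Of 14 genes of cholesterol uptake, storage and lysosomal release, 8 passed the filter. Of these, 1 (Lpl) was higher and none lower, with a median of 0.32, beside 1.83% higher over all genes. Beside Abca1, the exporter gene Abcg1 differed by 0.64 ± 0.36, with 263, 233, 218 and 283 CPM against 146, 186, 90.6 and 189 CPM and no overlap. Further targets of the sterol sensor LXR lay the other way with wide spread, Mylip at -0.36 ± 0.56 and Lpcat3 at -0.51 ± 0.69. Of 13 genes of cholesterol export and LXR targets, 5 passed and none was called in either direction, with a median of 0.48. None of the 16 genes of cholesterol synthesis passed the filter, and together they had 28 UMIs in myelin-DAM and 38 in homeostatic profiles, too few to compare.

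In the lysosome, Atp6v0d2, a subunit of the proton pump that acidifies it, was at 243, 42.4, 176 and 655 CPM in myelin-DAM and had no UMI in the homeostatic profiles, at least 47.1-fold higher over the 4 libraries. Its level varied more between libraries than that of any marker, with Cnp-/- 5xFAD replicate 2 highest and Cnp-/- replicate 2 lowest. The protease gene Ctsb was at 808, 827, 632 and 797 CPM against 259, 359, 261 and 304 CPM (1.28 ± 0.18). Ctsh (0.77 ± 0.18) and Psap (0.70 ± 0.23) were higher by less than 2-fold and Ctss did not differ beyond its spread (0.01 ± 0.33). Of 31 lysosomal genes, 25 passed, 2 were called higher and none lower, with a median of 0.27, where 1.83% of all genes were called higher. Atp6v0d2, 1 of these 2, could pass the filter through its myelin-DAM counts alone. The MiT family of transcription factors, which drive lysosomal genes, differed within itself. Mitf was at 1606, 1315, 1471 and 1754 CPM against 681, 718, 634 and 784 CPM (1.05 ± 0.17), higher in every library without overlap though short of 2-fold in Cnp-/- replicate 2. Tfeb (0.50 ± 0.79) and Tfe3 (-0.38 ± 0.67) did not differ beyond their spread. Among 22 transcription factor genes of microglia, 16 passed, none was called, and the median was 0.00, with Arid5b at 1.01 ± 0.36 and Zfhx3 at -0.97 ± 0.29 in opposite directions.

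The largest mean difference belonged to Mamdc2, which encodes a secreted proteoglycan. It was at 263, 382, 632 and 655 CPM in myelin-DAM and at 0, 0, 5.66 and 6.75 CPM in homeostatic profiles, where 2 UMIs were counted, a ratio of 125 (33.9 to 1041). Igf1, a growth factor for oligodendrocytes, was at 438, 424, 435 and 372 CPM against 8.11, 49.5, 45.3 and 6.75 CPM (3.33 ± 0.72). Cybb, the catalytic subunit of the phagocyte NADPH oxidase, was at 273, 276, 197 and 106 CPM against a single homeostatic UMI, a ratio of 115 (20.0 to 4618). Genes of signalling among the 15 largest differences were Lilrb4a (3.17 ± 0.31), an inhibitory receptor, Slamf7, an immune cell receptor with no homeostatic UMI that was at least 19.8-fold higher, and Fgr (2.63 ± 0.79), a Src family kinase. The remaining ones were the metalloprotease gene Adam33 (2.70 ± 0.62) and Fam20c (2.60 ± 0.33), a kinase of secreted proteins. Of 17 genes of cytokines and growth factors, 4 passed the filter and Igf1 was the 1 called. Csf1, a ligand of the CSF1 receptor, differed by 1.56 ± 0.92.

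Of 26 core DAM genes, 18 passed the filter, 7 were called higher (1.83% over all genes) and none lower, and the median was 1.21. The called members were Igf1, Itgax, Lgals3 (2.54 ± 0.62), Lpl, Axl, Lyz2 (1.90 ± 0.63) and Ctsb. Of these, Igf1, Itgax, Lgals3, Lpl and Lyz2 had fewer than 10 UMIs in each homeostatic profile and could pass the filter through their myelin-DAM counts alone. Cd9, a tetraspanin, was at 321, 700, 435 and 762 CPM against 154, 297, 159 and 311 CPM, a difference of 1.14 ± 0.16 on the scaled log2 values, on which Cnp-/- replicate 1 lay just under 2-fold (0.94). The list was drawn up from what is known of these cells, and its members helped to set the clusters, so the counts describe the subpopulation and do not test it.

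Immune genes were mixed. In the complement list, 7 of 10 genes passed and Itgax was the 1 called, with a median of -0.13, beside 1.83% called higher over all genes. C1qa (-0.26), C1qb (0.08) and C1qc (-0.13), which form the recognition molecule of the classical pathway, lay near the median of all genes. Of 18 genes of antigen presentation and interferon response, 6 passed, none was called and the median was 0.96. The class I genes H2-D1 (1.17 ± 0.61) and B2m (0.76 ± 1.07) and their activator Nlrc5 (1.64 ± 0.58) had means above 0, with wide spread for B2m. Of the 8 Ms4a genes, Ms4a7 and Ms4a6d (1.21 ± 0.70) passed. The summed level of the family was 352 to 457 CPM in myelin-DAM, 68.0 to 146 CPM in homeostatic profiles and 1364 to 2212 CPM in macrophages. No gene of proliferation passed the filter, and the list had 7 UMIs in myelin-DAM and 5 in homeostatic profiles, with Mki67 at 0 in myelin-DAM.

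The genes that were lower included markers of homeostatic microglia. P2ry12, the ADP receptor that guides microglial processes, was at 399, 424, 352 and 531 CPM in myelin-DAM and at 989, 966, 963 and 1169 CPM in homeostatic profiles (-1.28 ± 0.12). Siglech was at 331, 467, 186 and 319 CPM against 997, 1028, 912 and 1169 CPM (-1.70 ± 0.45). Selplg, the ligand of P-selectin, was at 224, 170, 228 and 354 CPM against 916, 904, 1008 and 1040 CPM (-1.99 ± 0.32). These genes were lower but present in each myelin-DAM profile. Tmem119, a membrane protein of homeostatic microglia, rested on fewer UMIs, with 48.7, 0, 31.1 and 17.7 CPM against 122, 111, 119 and 101 CPM (-1.77 ± 0.71). Others of the list were held closer to their homeostatic level, with Cx3cr1 at -0.61 ± 0.41, Tgfbr1 at -0.21 ± 0.19 and Mef2c at -0.17 ± 0.13. Of 14 homeostatic genes, 12 passed, 4 were lower (0.782% over all genes) and none higher, and the median was -0.92. In contrast, 12 genes of microglia and macrophage identity, among them Csf1r (-0.58 ± 0.19), Ptprc (0.63 ± 0.22) and Inpp5d (-0.63 ± 0.16), all passed and none was called, with a median of -0.06. The homeostatic subpopulation was found by clustering these same counts, so the lower homeostatic genes describe the 2 subpopulations and do not test them.

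The lower genes outside that list were led by Myo18b, an unconventional myosin, at 122, 99.1, 136 and 216 CPM in homeostatic profiles and without a UMI in myelin-DAM, at least 15.1-fold lower. Bank1, an adaptor protein of immune receptor signalling, was at 19.5, 63.6, 51.8 and 35.4 CPM against 357, 372, 334 and 392 CPM (-2.72 ± 0.50). Csmd3, a large transmembrane protein with complement control repeats, was the best counted, with 827, 742, 1025 and 1488 CPM against 4815, 4520, 4713 and 5600 CPM (-2.34 ± 0.31). All 3 were apart in every library. Slc2a5, the fructose transporter of microglia, was at 38.9, 0, 10.4 and 35.4 CPM against 186, 149, 108 and 162 CPM (-2.22 ± 0.62). The tetraspanin genes Tspan18 (-2.55 ± 0.47) and Upk1b (-1.94 ± 0.21) had 1 and 3 UMIs in myelin-DAM, giving ratios of 0.0296 (0.000737 to 0.171) and 0.114 (0.0226 to 0.354). The rest of the 15 largest differences were Itga9 (-1.74 ± 0.61), an integrin subunit, Whrn (-1.60 ± 0.57), a scaffold protein, Fam102b (-2.13 ± 0.69) and the transcripts 8030442B05Rik (-2.22), Gm32036 (-1.70) and 4933406I18Rik (-1.52).

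Markers of other cell types were read in the same profiles. The 13 border macrophage genes summed to 212 to 321 CPM in myelin-DAM and 266 to 446 CPM in homeostatic profiles, against 12490 to 19859 CPM in macrophages, and 8 of them (Cd163, Lyve1, Pf4, Cbr2, Folr2, Clec12a, Cd209a and Cd209f) had no UMI in myelin-DAM. Monocyte genes summed to 82.9 to 127 CPM against 12.4 to 48.6 CPM, with Ly6c2, Plac8, S100a4, Chil3 and Hp at 0 and Itga4 giving 22 of the myelin-DAM UMIs. Oligodendrocyte and myelin genes summed to 42.4 to 404 CPM in myelin-DAM and 24.8 to 346 CPM in homeostatic profiles, and to 11751 to 15487 CPM in MyTE. Myelin transcripts thus set MyTE apart but were at like levels in the 2 subpopulations compared here. Neuronal genes summed to at most 19.5 CPM, with 11 of 12 at 0 in myelin-DAM, astrocyte genes to 273 to 445 against 374 to 644 CPM, T and NK cell genes to 0 to 42.4 against 37.2 to 48.6 CPM, and genes of oligodendrocyte precursors to 21.2 to 58.4 against 12.4 to 32.4 CPM. Endothelial and pericyte genes summed to 337 to 611 against 90.6 to 198 CPM. Of their myelin-DAM UMIs, 137 belonged to Flt1, a VEGF receptor (467, 361, 549 and 337 against 81.1, 99.1, 85.0 and 60.8 CPM, 2.10 ± 0.34), 11 to Vtn and 4 to Pecam1. The part of these cells in the differences was not tested.

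The next question was whether the myelin-DAM state differed with the 5xFAD genotype, which was tested by comparing Cnp-/- 5xFAD with Cnp-/- libraries within the subpopulation. Amyloid itself was not measured in these nuclei. By the quasi-likelihood test of edgeR, 0 of 3325 genes (0%) passed an adjusted p (Benjamini-Hochberg) of 0.05. The fit took the myelin-DAM and homeostatic profiles of a library as separate samples, without a library term. At an unadjusted p under 0.05 there were 140 genes, and DESeq2 called 2. The markers did not differ beyond their errors, although nuclei of both genotypes had been placed in the subpopulation by these same counts, so that like marker levels are partly set by that choice. The fitted log2 fold change of Cnp-/- 5xFAD over Cnp-/- was -0.01 (SE 0.41) for Gpnmb, -0.01 (SE 1.06) for Ms4a7, -0.03 (SE 0.22) for Apobec1, -0.02 (SE 0.26) for Abca1 and 0.18 (SE 0.84) for Myof, each with an adjusted p of 0.999 in edgeR's test. None of the 61 higher and none of the 26 lower genes passed the threshold of edgeR, and 4 and 2 of them had an unadjusted p under 0.05.

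The genes of smallest p in that test included Kcnma1 and Ctnna3, each with an adjusted p of 0.535 in edgeR's test. Other settings called them, with adjusted p values of 0.0451 for both by DESeq2 and of 3.8e-07 and 6.5e-07 without a filter on low counts, and Kcnma1 also with the replicate number as a block (0.0228, against 0.108 for Ctnna3). Over all settings their adjusted p reached 1.0, without Cnp-/- 5xFAD replicate 2. Kcnma1, a large-conductance potassium channel, was at 38.9 and 0 CPM in myelin-DAM of Cnp-/- and at 487 and 319 CPM in that of Cnp-/- 5xFAD (log2 fold change 3.94, SE 0.72). Without Cnp-/- replicate 1 the remaining Cnp-/- library was at 0 and the fitted value, 8.38, depended on the prior count. It took like values in homeostatic nuclei, at 24.3 and 0 CPM in Cnp-/-, 408 and 243 CPM in Cnp-/- 5xFAD, 0 and 0 CPM in WT and 288 and 215 CPM in 5xFAD. The libraries with 5xFAD thus stood above those without in both subpopulations. Neurons had 1353 to 1603 CPM of Kcnma1 in all 8 libraries, and the part of neuronal RNA in these values was not tested. Ctnna3, alpha-T-catenin of cell junctions, was at 19.5, 21.2, 186 and 744 CPM in myelin-DAM (4.39, SE 0.84), with Cnp-/- 5xFAD replicate 2 the highest, and at 0, 0, 193 and 203 CPM in homeostatic profiles of the same libraries, 174 and 151 CPM in those of 5xFAD and 9.69 and 63.3 CPM in those of WT. Mature oligodendrocytes had 1811 to 2400 CPM of it.

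In homeostatic nuclei the same fit called 0 of 3325 genes (0%), with 149 at an unadjusted p under 0.05. These 149 included the Y chromosome genes Kdm5d (log2 fold change -1.24, SE 0.50) and Eif2s3y (-1.80, SE 0.78), lower in Cnp-/- 5xFAD. The paper's reporting form gives the Cnp-/- crosses as female, while its methods state that both sexes were used. Sex was a term in no test, and its part in the genotype differences was not tested. A test of whether the genotype difference itself depended on the subpopulation, with each library as a block, also called 0 of 3325 genes (0%) by edgeR, with 148 at an unadjusted p under 0.05 and 0 called by DESeq2. Its 3 genes of smallest p, each with an adjusted p of 0.786 in edgeR's test, were Pip5k1c, Zfp398 and Phactr2. Pip5k1c, a kinase that makes phosphatidylinositol bisphosphate, was at 253, 84.8, 135 and 142 CPM in myelin-DAM and at 32.4, 49.5, 159 and 149 CPM in homeostatic profiles (interaction -2.40 on the log2 scale, SE 0.67). This value rested on Cnp-/- replicate 1, without which it was -0.93. Zfp398, a zinc finger protein, was at 185, 191, 41.4 and 53.1 CPM and at 130, 99.1, 153 and 149 CPM (-2.35, SE 0.69). Phactr2, a regulator of phosphatase and actin, had an interaction of -1.50 (SE 0.44).

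**Figure D5:**
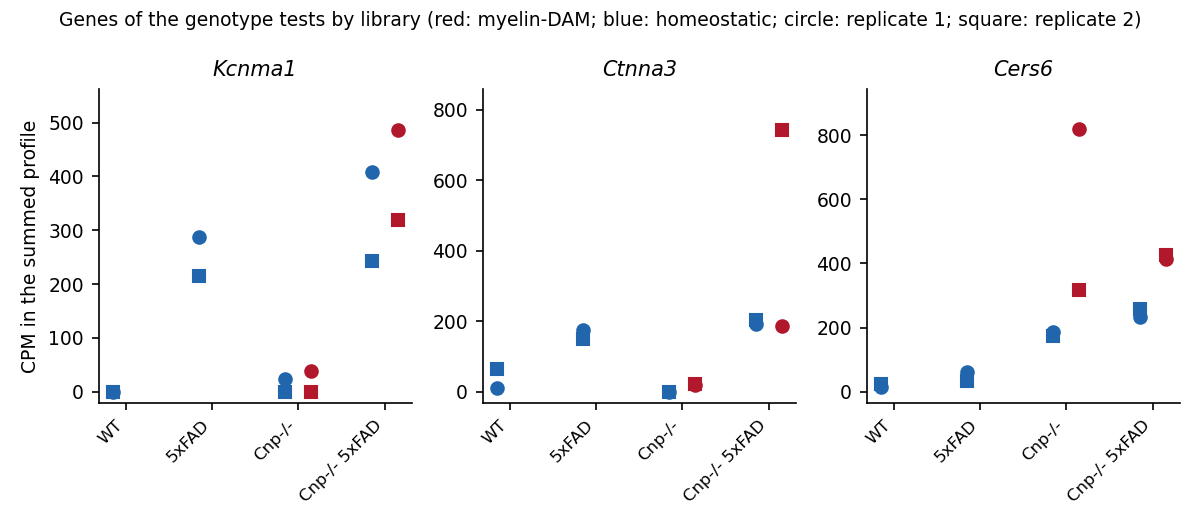
Levels of Kcnma1, Ctnna3 and Cers6, in CPM of the summed profile (y axes), by genotype (x axes) in myelin-DAM (red) and homeostatic nuclei (blue), with 1 point per library. Kcnma1 and Ctnna3 are higher in libraries with 5xFAD in both subpopulations, and Cers6 is higher in libraries without Cnp, reaching 818 CPM in myelin-DAM of Cnp-/- replicate 1.

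Whether nuclei outside the subpopulation also differed with Cnp loss was tested in homeostatic nuclei of all 8 libraries, allowing for 5xFAD. By edgeR's test 1 of 4566 genes (0.0219%) passed, and 178 had an unadjusted p under 0.05, while DESeq2 called 6. The gene was Cers6, a ceramide synthase, which rose by a log2 fold change of 2.64 (SE 0.33, adjusted p = 0.0255). Its homeostatic level was 14.5 and 25.3 CPM in WT, 60.7 and 34.8 CPM in 5xFAD, 186 and 173 CPM in Cnp-/- and 232 and 257 CPM in Cnp-/- 5xFAD, so libraries with and without Cnp did not overlap. In myelin-DAM it was higher still in every library, at 818, 318, 414 and 425 CPM, with a difference from homeostatic nuclei of 1.03 ± 0.64. The call for Cers6 was lost with the replicate number as a block (adjusted p = 0.0764), with equal numbers of nuclei (0.0746) and when any of 6 libraries was left out, with an adjusted p of 0.0687 without WT replicate 2 to 0.296 without Cnp-/- 5xFAD replicate 2. Its log2 fold change stayed near the value above, at 2.65 with the block, 2.90 with equal numbers of nuclei and 2.39 to 3.03 with a library left out. Of the genes higher in myelin-DAM, 24 of 61 could be tested here and none passed edgeR's threshold, with 4 at an unadjusted p under 0.05 and a median log2 fold change of 0.33. All 26 lower genes could be tested and none passed, with 4 at an unadjusted p under 0.05 and a median of -0.13. The median over all genes tested was -0.0038. Abca1 had a log2 fold change of 0.54 (SE 0.18) and Apobec1 of 0.42 (SE 0.30) with Cnp loss, each with an adjusted p of 0.998, while P2ry12 stood at -0.08. These fold changes and the differences between myelin-DAM and homeostatic nuclei share the homeostatic profiles of the libraries without Cnp. Homeostatic nuclei had also been placed in their subpopulation by these same counts, so a lack of difference in these genes is partly set by that choice. The rest of the 61 genes did not pass the filter on low counts in homeostatic profiles.

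The 13 nuclei placed in the subpopulation in libraries with Cnp, 12 of them from 5xFAD, held 16665 UMIs together. Gpnmb was at 840 CPM in them (14 UMIs, 95% counting interval 459 to 1410), Apobec1 at 1440 CPM (24 UMIs, 923 to 2143) and Abca1 at 720 CPM (12 UMIs, 372 to 1258). These nuclei were placed in the subpopulation by the same counts, and the intervals cover counting error only. P2ry12 was at 360 CPM (6 UMIs, 132 to 784), against 1108 CPM in homeostatic nuclei of the same libraries. Mamdc2 was at 180 CPM (3 UMIs, 37.1 to 526) and Atp6v0d2 at 300 CPM (5 UMIs, 97.4 to 700). In homeostatic nuclei of the same libraries they were at 2.84 and 0 CPM. Ms4a7 and Myof had 1 UMI each and Colec12 and Tmem119 none, so these could not be compared. The nuclei were too few for a profile in any 1 library, and no test was run.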

How the data were processed

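Nuclei were sequenced on the 10x Chromium platform, and the authors mapped reads with Cell Ranger 6.1.2 to mm10 and removed ambient transcripts with CellBender. The deposited tables hold UMI counts per gene and nucleus, with annotations of each nucleus. The deposited annotation also gives the percent of mitochondrial UMIs. How doublets and intronic reads were treated was not given in the sources used here.

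Counts were summed per library and subpopulation, and 3325 genes passed the edgeR 4.0.16 filter filterByExpr (minimum count 10) with TMM scaling in the 8 profiles used (R 4.3.3). Subpopulations are the authors'. Differences between subpopulations were described by log2 CPM (prior count 2) in each library, and a gene was called past 2-fold in the same direction in each of 4 libraries. Genotypes were compared by the edgeR quasi-likelihood test (Benjamini-Hochberg, threshold 0.05) without a replicate or library term. That fit took the myelin-DAM and homeostatic profiles of the same libraries as separate samples. Deviations of the 2 profiles of a library correlated at 0.579 in Cnp-/- and at 0.480 in Cnp-/- 5xFAD. The p-values of that fit thus rest partly on profiles that are not independent. With the myelin-DAM profiles alone, 0 genes passed. The test of the interaction had a library block, and that of Cnp loss in homeostatic nuclei had a term for 5xFAD. Alternatives were DESeq2 1.42.0 (test and size factors), no filter, other fold thresholds, prior count 0.5, equal numbers of nuclei, leaving out each library, and a replicate block. Exact tests and intervals used Python 3.11.15, NumPy 2.4.6 and SciPy 1.17.1, and the scripts were tested on simulated data. Promoter windows were RefSeq's, and gene positions came from the annotation of GRCm38.

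Named genes were the 5 markers, the 15 genes of largest mean difference in each direction among those called, the genes past the threshold of each test or else the 3 of smallest p, and up to 6 members of each list, those called first and then the best counted. Trem2, Cx3cr1 and Cd9, and the marker genes listed at 0, were named after their values were seen. Cell type, gene lists and tests were chosen with earlier results of these data known. Some genes that met these rules are not reported here.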

Additional observations from a re-analysis of the deposited data

Results flagged for a closer look

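In the comparison of myelin-DAM with homeostatic nuclei, 1 of 39 sets of 4 library values checked had a value far from the others. For Gm32036, an unnamed transcript among the 15 largest lower differences, the log2 difference was -1.76, -1.73 and -1.75 in Cnp-/- replicates 1 and 2 and Cnp-/- 5xFAD replicate 1, and -1.55 in Cnp-/- 5xFAD replicate 2. The gene was more than 2-fold lower in each library. Chance marks about 1 in 20 such sets.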

How the results depend on the processing

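With other settings the counts of genes past the fold threshold in each library were 110 higher and 83 lower at 1.5-fold and 32 higher and 6 lower at 3-fold. Leaving out a library gave 68 to 94 higher and 34 to 49 lower genes, with 94 and 49 without Cnp-/- replicate 2 and 40 lower without Cnp-/- 5xFAD replicate 2. The rule then asked for fewer libraries, so a rise is partly built in, and 57 to 60 of the 61 and 26 of the 26 were kept. Most of the other settings gave like counts, and of the 61 higher and 26 lower genes 61 and 25 were kept with size factors of DESeq2, and 46 and 18 with equal numbers of nuclei. The log2 differences of genes near 0 in a subpopulation depended on the prior count, with Gpnmb at 5.77 and Ms4a7 at 4.67 for a prior count of 0.5.

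Within myelin-DAM the genotype test called 0 genes under each library left out, but 4 genes without a filter on low counts, 2 by DESeq2 and 1 with a replicate block. Over its alternatives the adjusted p of Kcnma1 ranged from 3.8e-07 without a filter to 1.0 without Cnp-/- 5xFAD replicate 2, with 0.0228 under the replicate block and 0.0451 by DESeq2, and Ctnna3 had 6.5e-07 without a filter and 0.0451 by DESeq2. The markers lay so near 0 that their sign changed, with Gpnmb at 0.000408 under size factors of DESeq2, 0.0114 without a filter and 0.00667 by DESeq2, and Ms4a7 at 0.0112 without a filter. With a library left out Gpnmb ranged from -0.0986 to 0.152, Ms4a7 from -0.0741 to 0.0574, Apobec1 from -0.202 to 0.209, Abca1 from -0.345 to 0.211 and Myof from -0.0208 to 0.325. The cause of these changes was not tested. The interaction test called 0 genes under every alternative run. The interaction of Pip5k1c was -0.93 without Cnp-/- replicate 1 and -3.13 without Cnp-/- replicate 2.

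For Cnp loss in homeostatic nuclei, 14 genes were called without a filter, 6 by DESeq2, 0 with equal numbers of nuclei, 0 with a replicate block and 0 to 2 with a library left out. Cers6 was lost with equal numbers of nuclei (adjusted p = 0.0746), with the replicate block (0.0764) and without WT replicate 1 (0.102), WT replicate 2 (0.0687), Cnp-/- replicate 1 (0.179), 5xFAD replicate 2 (0.219), Cnp-/- 5xFAD replicate 1 (0.150) or Cnp-/- 5xFAD replicate 2 (0.296). Its log2 fold change was 2.39 to 3.03 over all alternatives, against 2.64. The difference in share turned to 0.0472 percentage points over all nuclei, and was -15.7 to -11.5 with a library left out, -14.4 without macrophages, -9.15 against homeostatic nuclei alone and -12.9 for nuclei of at least 1000 UMIs. The replicate numbers were not tied to a shared animal or batch, and deviations of same-numbered libraries correlated at 0.034 in myelin-DAM and at -0.064 to 0.082 in homeostatic nuclei.

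The limits are 2 libraries a genotype, 36 to 83 nuclei a profile and 1208 UMIs in the median nucleus, so that genes with a few UMIs a profile could not be compared.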
